A study of Mus musculus with 10 samples.

Results

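RNA polymerase II (Pol II) occupancy was compared between ES-E14TG2a embryonic stem (ES) cells, an established mouse line, and primary mouse embryonic fibroblasts (MEFs), using every Pol II peak on the 19 autosomes. These were 44629 of the 46940 peaks in the 8 peak lists of the series, and they comprised 31667 of the 32345 Pol II peaks of ES cells and 12962 of the 13306 Pol II peaks of MEFs. ES cells were grown on gelatin in stem cell medium with LIF and serum. MEFs came from E12.5 embryos, were grown in the same kind of medium without LIF and were passaged 3 to 5 times. No genotype or drug treatment is given for either, and how many embryos were pooled is not stated. Chromatin of fixed cells, sheared to about 200 to 700 bp, was precipitated with the N-20 antibody to Pol II and sequenced (ChIP-seq). There is 1 library per cell type, so the values below compare 2 peak lists and have no replicate error. The read depth is unknown. Intervals in brackets are exact 95% intervals for counting error over peaks only, and neighbouring peaks are not independent. Positions are on mouse build mm9. Peaks carry no gene names, so the labelled cell types could not be checked against marker genes.

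Pol II is the enzyme that transcribes protein-coding genes and many non-coding RNAs. It typically accumulates just downstream of promoters, where it pauses, and is found at lower density along the bodies of transcribed genes, where it elongates, and beyond their 3′ ends. N-20 was raised against the N terminus of the largest subunit, outside the C-terminal repeat domain whose phosphorylation changes between pausing and elongation, so it is used for total Pol II. A promoter peak in such data is usually narrow, whereas strongly transcribed genes can show broad peaks or several peaks in a row. Embryonic stem cells and fibroblasts share most housekeeping transcription and differ in lineage genes.

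The ES list was 2.44 times as long as the MEF list on autosomes (2.39 to 2.49) and covered 44.6 Mb, against 18.4 Mb in MEFs. Peaks lay at 13.2 per Mb in ES cells and 5.40 per Mb in MEFs, counted between the first and the last peak of each chromosome. The chromosomes had a similar but not identical order in both cell types. Chromosome 11 was the densest in both, with 25.01 peaks per Mb in ES cells and 8.56 in MEFs. Chromosome 19 followed in both, with 17.6 peaks per Mb in ES cells and 7.32 in MEFs. The sparsest was chromosome 3 in ES cells, with 9.44 peaks per Mb, and chromosome 14 in MEFs, with 4.05. Chromosome 8 had 16.4 peaks per Mb in ES cells, close to the 16.5 of chromosome 17, but 5.31 in MEFs against 6.93. Across the 19 chromosomes the densities had a Spearman correlation of 0.91, a description of 1 pair of libraries over chromosomes that share their gene content.

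Chromosomes 8 and 11 held more of the ES list than of the MEF list. On chromosome 8 there were 2102 ES peaks and 680 MEF peaks, and its share of the ES list was 1.27 times its share of the MEF list (1.16 to 1.38). On chromosome 11 there were 2971 ES peaks and 1017 MEF peaks, and the ratio of shares was 1.20 (1.11 to 1.29). These were the only 2 chromosomes whose interval lay above 1. The interval lay below 1 for 5 chromosomes, and the lowest ratio was 0.81 (0.74 to 0.89) on chromosome 3, with 1454 ES peaks and 733 MEF peaks. With peaks at most 2 kb apart merged, the intervals of chromosomes 10 (0.86 to 1.05), 13 (0.83 to 1.04) and 16 (0.81 to 1.03), below 1 before, included 1. That of chromosome 1 (0.82 to 0.99) then lay below 1. The intervals are not adjusted for the 19 chromosomes compared, and a higher share on some chromosomes lowers the shares of the rest.

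On chromosome 8 a majority of bins had the higher share in ES cells. Of 71 bins of 1 Mb with at least 10 peaks in both lists together, 47 (66.2%) had the higher share in ES cells, against 50.2% of all such bins and 48.1% of those outside chromosomes 8 and 11. On chromosome 11 it was 53 of 82 bins (64.6%). Overlapping peaks on chromosome 8 also had the largest rank and width differences of the 19 autosomes. At 423 pairs of overlapping peaks there, the percentile rank of the score within its own list (100 is the highest score) was a median of 11.4 points higher in ES cells than in MEFs (8.81 to 14.5), against 5.45 points over the other autosomes. ES peaks of these pairs were a median of 1.18 times as wide as their MEF partners, against 1.02 times over the other autosomes, and all ES peaks on chromosome 8 had a median width of 1152 bp, the highest of any autosome. The next values were a rank difference of 8.40 points on chromosome 13 (3.10 to 12.1) and a width ratio of 1.16 on chromosome 6, and chromosome 11 had 7.58 points (5.69 to 9.46) and 1.07. These percentiles come from lists of unequal length, and such differences depend on the lengths. Over all pairs the median rank was 74.9 in ES cells and 63.4 in MEFs. The median difference was positive on every autosome and lowest, at 2.40 points, on chromosome 12. Width and score correlated at 0.76 across ES peaks, so the rank and width differences are not separate observations. The number of chromosome copies in these cells was not measured here, and its part in these values was not tested.

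**Figure D1:**
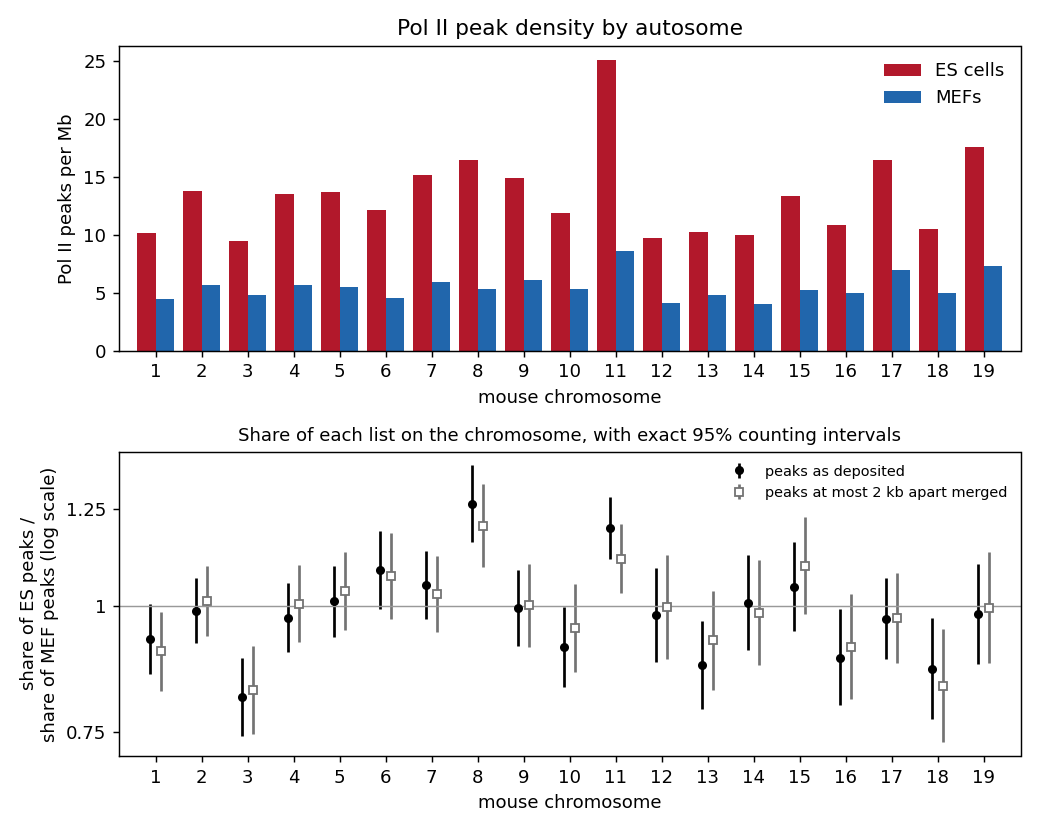
Upper panel: Pol II peaks per Mb on each autosome, with ES cells in red left of MEFs in blue. Lower panel: share of the ES list divided by share of the MEF list on each chromosome (log scale), with exact 95% counting intervals, for peaks as deposited and for peaks merged where they lay at most 2 kb apart. Chromosome 8 stands highest at 1.27 and chromosome 3 lowest at 0.81.

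In 1 Mb bins the lists followed each other closely, with exceptions in both directions. Of 2414 bins between the first and last peaks of the chromosomes, 1729 held peaks of both cell types, 148 of ES cells only, 96 of MEFs only and 441 of neither. Bins held by 1 cell type alone were thinly filled, with a median of 1 peak in either case. Over the 1973 bins with any peak the counts had a Spearman correlation of 0.78, a description across bins that share libraries and gene content. ES peaks were more concentrated. The densest 10% of bins (241) held 40.4% of ES peaks and 35.0% of MEF peaks, and 154 bins belonged to the densest 10% in both.

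The bins with the most peaks were dense in both cell types. Chromosome 7 from 52000001 to 53000000 held 115 ES and 40 MEF peaks, the most of any bin in MEFs and the second most in ES cells. Its share of the ES list was 1.18 times that of the MEF list (0.81 to 1.73), an interval that includes 1. The most ES peaks, 118, lay on chromosome 11 from 97000001 to 98000000, against 23 MEF peaks (ratio of shares 2.10, 1.34 to 3.44). Next for ES cells came chromosome 10 from 80000001 to 81000000 (103 ES and 34 MEF peaks), chromosome 8 from 87000001 to 88000000 (99 and 22) and chromosome 11 from 69000001 to 70000000 (94 and 27). Next for MEFs came chromosome 7 from 134000001 to 135000000 (82 ES and 37 MEF peaks), chromosome 11 from 120000001 to 121000000 (77 and 36), chromosome 10 from 79000001 to 80000000 (76 and 35) and chromosome 19 from 5000001 to 6000000 (71 and 35). In all 4 of these bins the interval of the ratio of shares included 1.

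Of 1274 bins with at least 10 peaks in both lists together, 113 (8.87%) had an ES share at least 2-fold above the MEF share and 182 (14.3%) had the reverse, after 0.5 was added to both counts. The order of these counts depended on the minimum, since with at least 20 peaks per bin 82 bins were high in ES cells and 61 in MEFs. Both kinds occurred on all 19 autosomes. Of the 5 bins with the highest ES to MEF ratio, 3 held ES peaks in rows of 5 or more. On chromosome 11 from 12000001 to 13000000 there were 74 ES peaks and 1 MEF peak, which did not overlap (ratio of shares 30.3, 5.27 to 1212). Chromosome 13 from 44000001 to 45000000 held 68 ES peaks and 1 MEF peak, and that MEF peak was shared (ratio 27.8, 4.83 to 1115). Chromosome 8 from 44000001 to 45000000 held 36 ES peaks of median width 1723 bp and no MEF peak, an ES share at least 4.91-fold higher when the MEF count is set to the 3 peaks that a count of 0 allows. Chromosome 7 from 114000001 to 115000000 (20 ES peaks, at least 2.73-fold) and chromosome 4 from 146000001 to 147000000 (16 ES peaks, at least 2.18-fold) were also empty in MEFs.

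Bins high in MEFs held fewer peaks, with a median of 15 peaks of both lists against 26 in the bins high in ES cells and 29 in the other bins. Bins were called by these same counts, most of which are ES peaks. A bin with few ES peaks therefore has a low total, and these medians are a description only. On chromosome 1 from 45000001 to 46000000 there were 3 ES peaks and 25 MEF peaks (ratio of ES share to MEF share 0.049, 0.0095 to 0.16), and 1 of the 25 overlapped an ES peak. Chromosome 10 from 13000001 to 14000000 held 2 ES and 21 MEF peaks (0.039, 0.0044 to 0.16), with both ES peaks shared. Chromosome 5 from 91000001 to 92000000 held no ES peak and 10 MEF peaks of median width 1987 bp, a MEF share at least 8.14-fold higher when the ES count is set to 3. Chromosome 7 from 96000001 to 97000000 (1 ES and 9 MEF peaks; 0.045, 0.0010 to 0.33) and chromosome 17 from 44000001 to 45000000 (2 and 13; 0.063, 0.0069 to 0.28) completed the 5 lowest ratios.

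**Figure D2:**
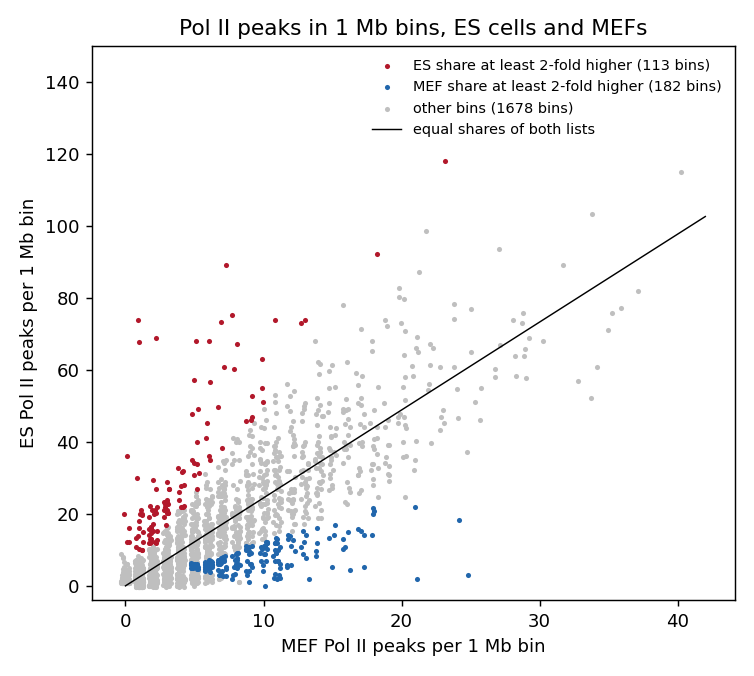
Number of ES peaks (vertical axis) against MEF peaks (horizontal axis) in each 1 Mb bin with a peak; points are shifted slightly at random so that equal counts can be told apart. The line marks equal shares of both lists. The 113 bins with an ES share at least 2-fold higher reach 118 ES peaks. The 182 bins with a MEF share at least 2-fold higher lie near the lower edge, with at most 25 MEF peaks.

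ES peaks lay closer together than MEF peaks, also when the lists had the same length. The median gap from the end of a peak to the start of the next was 5434 bp in ES cells (5199 to 5698) and 47606 bp in MEFs (46173 to 49048). The gap depends on the length of the list. With the 12962 highest-scored ES peaks the median was 21781 bp in ES cells against 47606 bp in MEFs, and with peaks at most 2 kb apart merged ES cells had 21619 bp, against 52057 bp for MEFs. In ES cells 9646 of 31648 gaps (30.5%, 30.0 to 31.0%) were at most 1 kb, against 520 of 12943 (4.02%, 3.69 to 4.37%) in MEFs. Gaps of at most 100 kb made up 88.2% of gaps in ES cells and 68.8% in MEFs. Neighbours almost in contact occurred in both, with 2976 gaps of at most 100 bp in ES cells (9.40%) and 251 in MEFs (1.94%). Between 1 and 2 kb there were 2548 gaps in ES cells (8.05%) and 113 in MEFs (0.87%).

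The short gaps joined ES peaks into runs, here meaning rows of peaks each at most 2 kb from the next. There were 870 runs of 5 or more peaks in ES cells, which held 6246 peaks or 19.7% of the list, and none (0 of 12962 peaks, 0%) in MEFs, where the longest run had 3 peaks. Even at a gap of up to 5 kb, MEFs had 3 runs of 5 or more peaks, against 1236 in ES cells. The number was smaller in a shorter list. When ES cells were cut to their 12962 highest-scored peaks, 121 runs of 5 or more remained, against 0 in MEFs. Such a cut does not equalise read depth or peak calling, and the part of either in the runs was not tested. Long runs in ES cells had a median of 6 peaks over a median span of 13324 bp, of which peaks covered a median of 80.8%. They occurred on all 19 autosomes and took up 26.9% of the length covered by ES peaks.

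The longest runs were nearly continuous. At chromosome 14 from 22290375 to 22413287, 51 ES peaks covered 87.9% of 122913 bp, with scores from 60.7 to 3100, and 2 MEF peaks lay in the same span, both overlapping ES peaks. At chromosome 4 from 130218571 to 130329926, 44 ES peaks covered 86.4% of 111356 bp, against 1 MEF peak. At chromosome 13 from 44855550 to 44942000, inside the bin with 68 ES peaks described above, 30 ES peaks covered 79.8% of 86451 bp and there was no MEF peak. Runs of 27 ES peaks at chromosome 4 from 137148751 to 137224327 and of 26 at chromosome 7 from 140251061 to 140317445 each contained 1 MEF peak, which overlapped. No gene was assigned to these spans.

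The shared percentage was lower in runs. Of ES peaks that stood alone, 37.0% (36.2 to 37.8%) overlapped a MEF peak, and the share was 27.2% in runs of 2, 18.0% in runs of 3 to 4, 13.2% in runs of 5 to 9 and 8% (6.75 to 9.39%) in runs of 10 or more. Scores did not follow the same order, with a median percentile rank of 56.7 in runs of 10 or more and 48.9 for single ES peaks. Yet 450 of the 870 long runs (51.7%, 48.3 to 55.1%) contained at least 1 shared peak, and 261 contained exactly 1. Of the 23159 ES peaks without a MEF partner, 4758 (20.5%) lay in the same run as a shared peak. When peaks at most 2 kb apart were merged, 19473 ES units and 12329 MEF units remained, a ratio of 1.58 in place of 2.44, and 38.7% of ES units overlapped a MEF unit in place of 26.9% of ES peaks.

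Bins high in ES cells were chosen by their ES counts, to which runs add, so the share of peaks in runs there is a description only. In the 113 bins, 40.9% of 3669 ES peaks lay in runs of 5 or more, against 19.7% of all ES peaks and 3.77% of the 1431 ES peaks in the 182 bins high in MEFs. With units in place of peaks, 69 of the 113 bins and 96 of the 182 bins kept a 2-fold difference. Chromosome 11 from 12000001 to 13000000 then had 23 ES units and 1 MEF unit, and chromosome 13 from 44000001 to 45000000 had 14 and 1. The ratio of shares on chromosome 8 was 1.20 with units (1.09 to 1.32) and on chromosome 11 it was 1.12 (1.03 to 1.21).

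**Figure D3:**
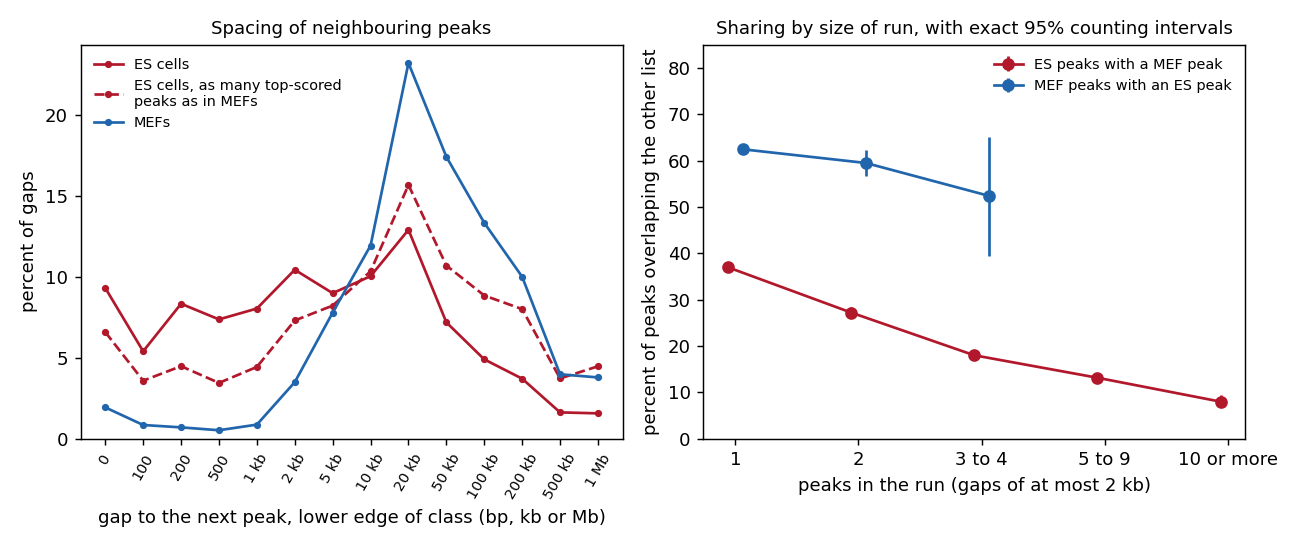
Left: percent of gaps between neighbouring peaks by gap class, for ES cells (red), for as many top-scored ES peaks as there are MEF peaks (dashed) and for MEFs (blue). Right: percent of peaks that overlap the other list by number of peaks in the run, with exact 95% counting intervals; MEFs have no run above 3 peaks. Sharing of ES peaks goes from 37.0% for single peaks to 8% in runs of 10 or more.

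Over the full lists ES peaks were slightly narrower, but the ES list reached greater widths. The median width was 958 bp (951 to 965) in ES cells and 1094 bp (1079 to 1110) in MEFs, with quartiles of 706 and 1497 bp in ES cells and 735 and 1706 bp in MEFs. With only the 12962 highest-scored ES peaks kept, the median was 1609 bp in ES cells against 1094 bp for all MEF peaks. Width rose with score in ES cells, so this cut of the ES list alone raises its median. At peaks above each list's median score, a cut of both lists, the ratio of medians was 1.03. Peaks of 4 kb or wider numbered 1403 in ES cells (4.43%, 4.21 to 4.66%) and 474 in MEFs (3.66%, 3.34 to 3.99%). Those of 10 kb or wider numbered 165 in ES cells and 0 in MEFs, where the widest peak measured 9068 bp. The widest ES peaks lay at chromosome 4 from 118780724 to 118818944 (38221 bp), chromosome 4 from 126697672 to 126727082 (29411 bp) and chromosome 6 from 67229514 to 67257226 (27713 bp), and they overlapped 1, 2 and 0 MEF peaks.

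Width followed the score more strictly in ES cells. From the lowest to the highest decile of scores, the median width went from 613 to 3245 bp in ES cells and from 636 to 1716 bp in MEFs. The Spearman correlation of width and score was 0.76 across ES peaks and 0.50 across MEF peaks, each within 1 library. Broad peaks were placed differently among the scores. In ES cells no peak of 4 kb or wider fell in the lower 6 deciles, and 38.7% of the highest decile were that wide. In MEFs they made up between 2.54% and 4.71% of every decile. The widest MEF peak, at chromosome 11 from 87235741 to 87244808, had a score of 55.5, near the minimum, and the next, at chromosome 4 from 135695153 to 135704164 (9012 bp), had 78.1. The sources used here do not say how scores and borders were set for each list, and the part of peak calling in this difference was not tested.

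Scores started at 50 in both lists and their quartiles were 72.5 and 275 in ES cells and 75.8 and 244 in MEFs, with values further apart at the upper ends. Since the scale is not stated, these values describe each list and are no measure of a difference in Pol II. The 99th percentile was 3100 in ES cells and 831 in MEFs. In ES cells 362 peaks had a score of exactly 3100 and 24 had more, against 1 MEF peak at 3100 and none above. The 386 ES peaks at or above 3100, most of them tied, had a median width of 6522 bp. Of them, 261 (67.6%, 62.7 to 72.3%) overlapped a MEF peak, against 26.9% of all ES peaks and 58.9% of the highest score decile. Where 200 of these 386 peaks had a single MEF partner, that partner had a median percentile rank of 86.4 within MEFs. The MEF peaks of all such pairs had a median rank of 63.4.

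**Figure D4:**
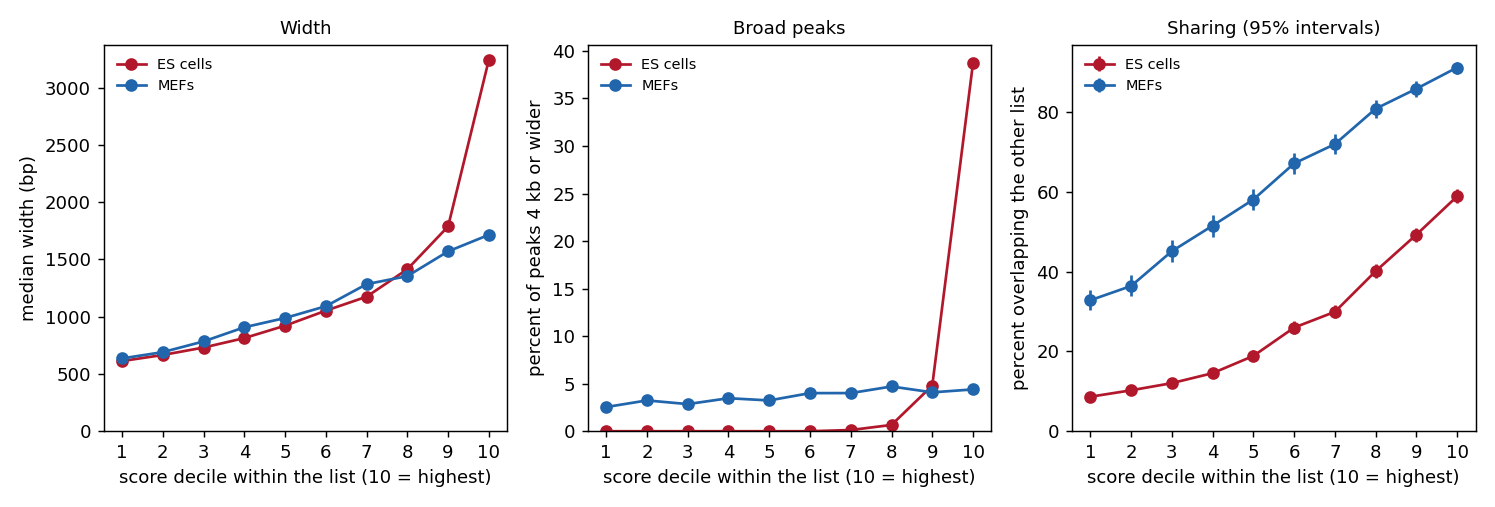
Median width (left), percent of peaks 4 kb or wider (middle) and percent of peaks overlapping the other list with exact 95% counting intervals (right), by decile of the score within each list, for ES cells (red) and MEFs (blue). Broad ES peaks sit in the highest deciles, up to 38.7%, while MEFs stay between 2.54% and 4.71%.

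At 1 bp of overlap, 8508 ES peaks (26.9%, 26.4 to 27.4%) were shared with MEFs and 8051 MEF peaks (62.1%, 61.3 to 62.9%) with ES cells. Both percentages depend on the length of the other list, and with lists of equal length they were 44.2% and 44.1%. By decile of the score the shared percentage went from 8.65% to 58.9% in ES cells and from 32.8% to 91.2% in MEFs. Shared peaks were wider than the others, with medians of 1099 bp against 909 bp in ES cells and of 1217 bp against 912 bp in MEFs. Several partners were more frequent for MEF peaks. Of the shared MEF peaks, 565 (7.02%) overlapped 2 or more ES peaks, while 174 shared ES peaks (2.05%) overlapped 2 or more MEF peaks. The ES list is longer and more closely spaced, and these counts were not repeated with lists of equal length. Most peaks without a partner lay more than 5 kb from any peak of the other list. Their median distance to the nearest peak of the other list was 17267 bp for ES peaks and 34021 bp for MEF peaks, and 21.7% of these ES peaks and 13.8% of these MEF peaks lay within 5 kb. Beyond 100 kb lay 10.2% of the ES peaks and 25.03% of the MEF peaks without a partner, distances that depend on the length of the other list.

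By chromosome, the shared percentage of MEF peaks lay between 54.6% on chromosome 1 and 70.7% on chromosome 11, and that of ES peaks between 22.6% on chromosome 8 and 30.3% on chromosome 3. POLR3C, a subunit of RNA polymerase III, which makes tRNAs and other short RNAs, was measured in the same cell types. Its peaks overlapped 61 of the 8508 shared ES Pol II peaks (0.717%, 0.549 to 0.920%) and 37 of the 23159 others (0.160%, 0.113 to 0.220%). In MEFs they overlapped 59 of 8051 shared Pol II peaks (0.733%, 0.558 to 0.944%) and 20 of 4911 others (0.407%, 0.249 to 0.628%).

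Shared peaks were chosen by overlap, which keeps them close in position, and their ranks correlated only moderately. There were 7153 pairs in which 1 ES and 1 MEF peak overlapped each other and no other peak. Their centres were a median of 170 bp apart, 62.1% lay within 250 bp, and in 59.4% the shorter peak lay wholly inside the longer. The ES peak was a median of 1.03 times as wide as the MEF peak, with quartiles of 0.74 and 1.48. The Spearman correlation was 0.34 for scores and 0.43 for widths across the pairs, which all come from the same 2 libraries. These values are descriptions and carry no test. Score correlations by chromosome were between 0.25 on chromosome 17 and 0.46 on chromosome 12. With ES peaks outside runs only, the score correlation was 0.39.

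Among the pairs, ES rank followed MEF rank with a wide spread. When the pairs were ranked among themselves, MEF peaks of the highest decile had ES partners with a median rank of 81.8 (quartiles 62.8 and 91.7), and those of the lowest decile had partners with a median rank of 33.8 (12.9 and 60.04). Of the pairs, 35.2% fell in the same quartile in both lists, and 43.9% of the 1789 MEF peaks of the upper quartile had an ES partner in the upper quartile. Unrelated ranks would give about 25% for either share. Rank differed by at most 10 points in 27.4% of pairs. The ES peak ranked at least 50 points above its MEF partner in 583 pairs (8.15%), and the MEF peak ranked at least 50 points above in 443 (6.19%). The shares that unrelated ranks would give for these differences in points were not computed.

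Taking the same number of highest-scored peaks from each list showed how far the upper ends coincided. Among the 500 highest of each, 85 MEF peaks (17.0%, 13.8 to 20.6%) overlapped one of the 500 ES peaks, among 2500 it was 29.4% and among 10000 it was 44.1%. The highest MEF peaks were nevertheless nearly all present somewhere in the ES list, with 92.0% of the top 500, whereas 64.6% of the top 500 ES peaks had any MEF peak. Of the highest 10% of each list, 596 of 3166 ES peaks (18.8%, 17.5 to 20.2%) and 588 of 1296 MEF peaks (45.4%, 42.6 to 48.1%) overlapped each other.

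Single pairs show the range. The pair with the highest combined rank lay at chromosome 10 from 127518296 to 127521806, with a score of 3136.78 and a width of 3511 bp in ES cells and a score of 1178.95 and a width of 1492 bp in MEFs. The pair at chromosome 3 from 96072910 to 96074375 was also near the top of both, with scores of 3100 in ES cells and 2666.65 in MEFs at widths of 1385 and 1466 bp. ES rank exceeded MEF rank most at chromosome 1 from 180259829 to 180269261, where the ES peak scored 3100 over 9433 bp and the MEF peak 50.59 over 7397 bp, so that a broad peak was called in both. At chromosome 13 from 101551245 to 101557055 the ES peak scored 3100 over 5811 bp and the MEF peak 51.63 over 499 bp. In the other direction, chromosome 6 from 129130355 to 129131549 scored 52.86 in ES cells and 742.58 in MEFs, and chromosome 12 from 85328128 to 85329158 scored 52.68 in ES cells and 670.77 in MEFs. At chromosome 4 from 55662976 to 55666134 the ES peak scored 58.78 over 534 bp and the MEF peak 591.18 over 3159 bp. Scores are set side by side only to show each peak's place in its own list, because their scale is not stated.

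**Figure D5:**
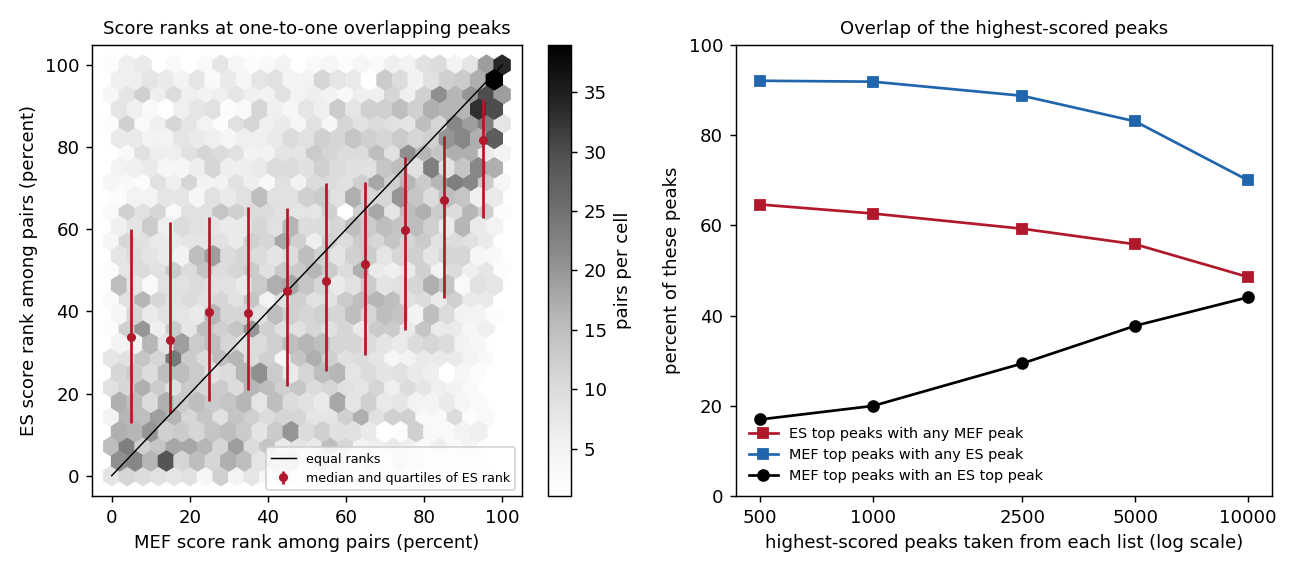
Left: ES rank (vertical axis) against MEF rank (horizontal axis) of scores among 7153 one-to-one overlapping pairs, in percent; shading counts pairs, red points are medians of ES rank by decile of MEF rank with quartiles, and the line marks equal ranks. Right: percent of the highest-scored peaks that overlap any peak of the other list (ES cells red, MEFs blue) or one of the same number of highest-scored peaks (black), by number of peaks taken (log scale). The medians go from 33.8 to 81.8, and the black line from 17.0% to 44.1%.

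Of the 3 longest stretches without a Pol II peak, 2 largely coincided between the cell types. On chromosome 15 the longest gap of ES cells ran from 13063002 to 25261267 and held 1 MEF peak, and that of MEFs ran from 12754986 to 22965529 and held 15 ES peaks. On chromosome 14 a gap from 106505934 to 115439884 in ES cells held no MEF peak, and the corresponding gap of MEFs, from 106411389 to 115440075, held 2 ES peaks. The third longest gaps differed in place, at chromosome 8 from 98388150 to 106562763 in ES cells, with 3 MEF peaks, and at chromosome 6 from 73198982 to 81873431 in MEFs, with 3 ES peaks.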

How the data were processed

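Pol II ChIP-seq peak lists of ES-E14TG2a cells and primary MEFs, 1 library each, were compared on autosomes. The authors deposited for each peak a chromosome, a start, an end, a name of the MACS pattern and 1 score. The scale of this deposited score is not stated, so it was used to rank peaks within a list, its distribution is given for each list as a description, and 1 alternative kept scores of at least 100 in both lists. CASAVA 1.8, Bowtie, SAMtools and HOMER and build mm9 are named in the submitters' processing notes; the sources used here do not give thresholds, control, pooling or depth. Names are numbered without a gap, from 1 to 32345 in ES cells and to 13306 in MEFs. Only positions were used of the POLR3C lists. No genome or annotation of mm9 was used here, so no gene or sequence is attached to a peak.

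Starts were read as 0-based and are printed 1-based. Peaks overlapped at 1 bp or more, and were placed in 1 Mb bins by their centre. Ratios of shares have exact conditional binomial intervals, percentages Clopper-Pearson intervals and medians order-statistic intervals, all at 95%. Named loci were the 5 bins with the most peaks per list, the 5 highest and 5 lowest ratios of shares, the 5 highest pairs by summed rank and the 5 largest rank differences each way, of which some are printed, and the 3 widest peaks and gaps per list. Runs (gaps of at most 2 kb) were chosen after their values were seen, as were the 5 longest runs. The peak lists, rule and alternatives were chosen with earlier results of these data known. The functions were tested on simulated peak lists. Python 3.11.15, numpy 2.4.6, scipy 1.17.1, pandas 2.3.3 and matplotlib 3.10.9 were used.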

Additional observations from a re-analysis of the deposited data

Results flagged for a closer look

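Peaks outside the autosomes were set apart by the choice of chromosomes, and those on chromosome X exceed the 3 peaks that a count of 0 allows. Chromosome X held 676 ES peaks (2.09% of the list) and 341 MEF peaks (2.56%). Its share of the ES list was 0.82 times its share of the MEF list (0.71 to 0.93), about as low as that of chromosome 3. Of these peaks, 33.3% (29.7 to 37.0%) in ES cells and 62.8% (57.4 to 67.9%) in MEFs overlapped the other list. The sex of the embryos that gave the MEFs was not used here, and its part was not tested. Chromosome Y held 2 ES peaks and 0 MEF peaks, and chromosome M held 0 ES peaks and 3 MEF peaks, none above that limit.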

How the results depend on the processing

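No paired analysis was possible because each cell type has 1 library, and there is no replicate to leave out. Across 18 results, 96 alternative values were computed, 42 of them for choices made after seeing the data. Of the 96, 44 kept their direction and stayed within the interval of the result, or within 0.05 for a correlation and 1.5 times for a count. Another 50 moved and 2 reversed direction. Lists of equal length were made by cutting the ES list alone. The MEF median width, median gap and runs at equal length, counted among the 44, therefore repeat the main values and could not change. The unknown depth limits every comparison of list lengths, and values that follow the length of a list moved most.

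The ES to MEF ratio of peak counts, 2.44, was 2.31 at scores of at least 100, and 1.77, 1.58 and 1.36 with peaks at most 1, 2 and 5 kb apart merged, and 1.96 without peaks in runs of 5 or more. The share of ES peaks overlapping MEF peaks, 26.9%, was 25.9% at an overlap of 50% of the shorter peak, 31.5% with peaks widened by 500 bp, 28.5% above the median scores, 44.2% with lists of equal length, 34.9% and 38.7% merged at 1 and 2 kb and 30.6% without long runs. The share of MEF peaks, 62.1%, was 61.0%, 64.3%, 67.6% and 44.1% under the first 4 of these, and 57.3% without long runs.

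The Spearman correlation of bin counts, 0.78, was 0.69 in bins of 500 kb, 0.83 in bins of 2 Mb and 0.86 over all bins. Bins high in ES cells, 113, numbered 52 at 2 Mb, 74 merged at 2 kb and 82 with 20 or more peaks per bin. Bins high in MEFs, 182, numbered 61 with 20 or more peaks per bin, 114 with lists of equal length and 97 merged at 2 kb.

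The ratio of median widths, 0.88, turned to 1.47 with lists of equal length, where low-scored peaks are left out of the ES list alone. It turned to 1.03 above the median scores, where low-scored peaks are left out of both lists. It was 0.91 merged at 1 kb and 0.84 without long runs. Median width was 1609, 1443 and 1043 bp in ES cells at equal length, above the median score and merged at 1 kb, and 1402 and 1144 bp in MEFs under the last 2. Median gaps in ES cells were 21781 bp at equal length, 16400 and 21619 bp merged at 1 and 2 kb and 7077 bp between centres, and in MEFs 51196 and 52057 bp merged at 1 and 2 kb.

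The rank correlation at overlapping peaks, 0.34, was 0.24 with lists of equal length, 0.40 with widths near the medians and 0.39 outside runs. The share of the highest 10% of MEF peaks found in that of ES cells, 45.4%, was 37.3% at 5%, 59.7% at 25% and 22.7% with the same number of peaks from each list. The ratio of shares on chromosome 8 stayed between 1.18 and 1.34 and on chromosome 3 between 0.79 and 0.83 under 6 alternatives each, while on chromosome 11 it was 1.10 above the median scores and 1.07 merged at 5 kb. Runs of 5 or more ES peaks, 870, numbered 531 at gaps of at most 1 kb, 121 at equal length and 189 above the median score, and those of MEFs numbered 3 at gaps of at most 5 kb.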
